A study of Mus musculus with 46 samples.

Results

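The binding of CEBPb in mouse liver 27 h after TCPOBOP was compared with that after vehicle in 8 peak lists, 1 per liver, out of the 46 lists of the series. The lists were chosen by the factor and time in their titles. They came from 4 livers of TCPOBOP-treated mice (D1 to D4) and 4 livers of vehicle-treated mice (C1 to C4). Overlapping peaks of the 8 lists were joined from 1 bp of overlap into 92566 regions, and each region was described by the livers in which it held a peak.

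The series asked where RXRa (RXR in the titles), CEBPa and CEBPb bind chromatin in the liver after activation of the nuclear receptor CAR. All mice behind the 8 lists were wild-type CD-1 males with a labelled age of 8 weeks. The treated mice had 1 injection of TCPOBOP at 3 mg/kg and the control mice had the solvent, DMSO in corn oil, and no drug. Chromatin was taken from frozen whole livers, so the lists mix all cell types of the liver, and each list came from a separate animal, with no pooling. CEBPa and RXR were measured in the same 8 livers, and lists of 3 h from other mice, with 3 livers per treatment and factor and the same dose, are used below where stated. The mice of the 3 h RXR lists had a labelled age of 8 weeks and those of the 3 h CEBPa and CEBPb lists one of 7 weeks.

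TCPOBOP is a ligand that activates CAR, the receptor that switches on drug-metabolizing genes in hepatocytes and drives growth of the liver. CAR binds DNA together with RXR, which is also the partner of many other nuclear receptors. CEBPb and CEBPa are related leucine zipper factors that recognize the same DNA motif and can pair with each other. CEBPa is known for holding hepatocytes in the differentiated state, and CEBPb for its role in the acute phase response and in liver regeneration.

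A peak list gives a position and a width for each peak and no height, score or read count. Sequencing depth is therefore unknown, and an absent peak shows only that signal in that liver did not reach the caller's threshold. The sample descriptions give the 8 libraries the same flow cell and lane codes, so the lane does not separate the treatments. Each p-value compares the treatments, with single livers as the replicates.

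The CEBPb lists were long in both treatments, and those of TCPOBOP livers tended to be longer. The TCPOBOP livers D1 to D4 held 51588, 55513, 45877 and 48849 peaks. The vehicle livers C1 to C4 held 45460, 47279, 39275 and 44791 peaks. The groups overlapped through D3, which lay below C2, while the other 3 TCPOBOP livers lay above every vehicle liver. The means differed by a ratio of 1.14, or 0.19 on the log2 scale (exact permutation test, two-sided p = 0.0571, where 4 livers against 4 allow no value below 0.0286). With Benjamini-Hochberg adjustment over the 9 values compared between the livers in this way, the adjusted p was 0.110. The bases under peaks differed by a ratio of 1.15 with the same p, and median widths were 267 to 276 bp in all 8 livers, so that the lists differed in the number of peaks more than in their width.

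**Figure D1:**
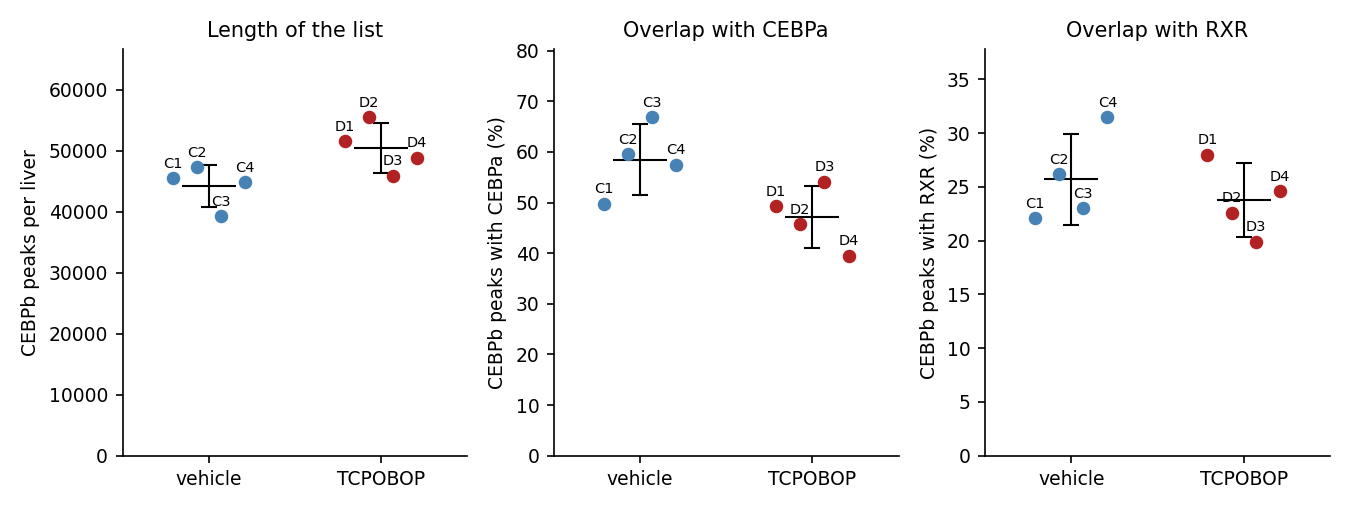
CEBPb peaks per liver (left) and the percentage of them that overlapped a CEBPa peak (middle) or an RXR peak (right) of the same liver, with 1 point per liver and black bars for the mean and SD of 4 livers. Peak numbers and both overlaps of the 2 treatments run into each other, with 3 TCPOBOP livers above all vehicle livers in peak number.

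The CEBPb map had a large common core and a wide fringe. Of the 92566 regions, 23684 (25.6%) held a peak in all 8 livers and 29931 (32.3%) in 1 liver alone. Livers contributed between 2394 (C3) and 6165 (D2) regions that no other liver had. The core held the wide peaks: of the 1000 widest peaks of a liver, 87.2% to 94.5% fell in regions called in all 8, against 43.0% to 60.7% of all its peaks.

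Peak width and the presence of the other factors rose with the number of livers that shared a region. The median width percentile, the rank of a peak's width within its own list, went from 15.8 for regions of 1 liver over 28.8 for regions of 4 livers to 68.1 for regions of 8 livers. CEBPa was called in at least 1 of the 8 livers at 17.6% of the regions of 1 liver, 63.9% of those of 4 livers and 99.0% of those of 8 livers. RXR was called at 11.7%, 24.2% and 55.2% of the same regions. These shares describe the lists and were not tested, since the width of a peak, its recurrence and the calling of other factors may share the accessibility of the site.

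**Figure D2:**
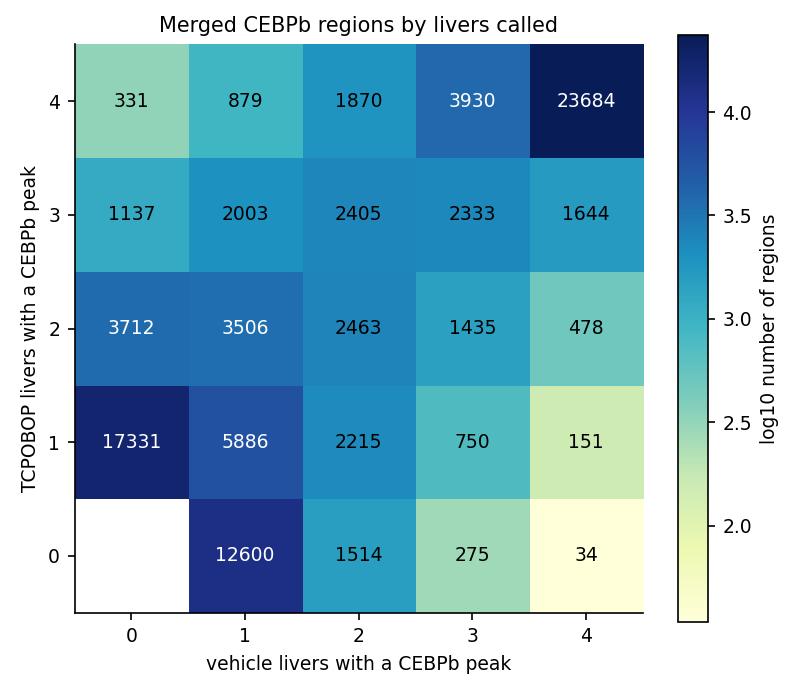
Number of merged CEBPb regions by the number of TCPOBOP livers (vertical) and vehicle livers (horizontal) that held a peak, with colour on a log10 scale. The corner of all 8 livers holds 23684 regions, the corner of TCPOBOP livers alone 331 and the corner of vehicle livers alone 34.

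Regions restricted to one treatment were a small part of this map, and more of them belonged to TCPOBOP. With a peak in all 4 TCPOBOP livers and no vehicle liver, 331 regions (0.358% of all) were gained. In the reverse pattern 34 regions (0.0367%) were lost. With these full lists, longer on average in TCPOBOP livers, the excess ran through the neighbouring patterns. A peak in 4 TCPOBOP livers and 1 vehicle liver was held by 879 regions (0.950%), against 151 (0.163%) in the reverse. A peak in 3 TCPOBOP livers and no vehicle liver was held by 1137 (1.23%), against 275 (0.297%) in the reverse. Fisher's exact test per region with Benjamini-Hochberg adjustment called 0 regions (0%). The test could not have called one. Only the 365 gained and lost regions had an unadjusted p below 0.05, which was 0.0286, the smallest that 4 livers against 4 allow. They were too few for this p to pass adjustment over 92566 regions, so nothing is read from the 0.

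The lead of gained over lost regions became smaller when every list was cut to 39275 peaks, the length of the shortest list, by keeping its widest peaks. Then 152 of 73759 regions were gained (0.206%) and 75 were lost (0.102%). Of the 331 gained regions of the full lists, 90 were among these 152, and of the 34 lost regions 12 were among the 75. The neighbouring patterns came closer to balance at this length. Regions of 4 TCPOBOP livers and 1 vehicle liver numbered 426 against 304 in the reverse, and those of 3 and none 540 against 486. Regions of 2 TCPOBOP livers and no vehicle liver were fewer than the reverse, at 1911 against 1998. Cuts to fewer peaks, of which those to 30000, 20000 and 5000 were added after the data were seen, left more gained than lost regions at each length: 122 against 54 at 30000 peaks, 82 against 49 at 20000, 50 against 36 at 10000 and 27 against 14 at 5000. The direction between gained and lost regions was the same at these 5 list lengths, while their ratio lay between 1.39 and 2.26 there. The shorter lists are parts of the longer ones, so the 5 lengths are not separate checks.

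**Figure D3:**
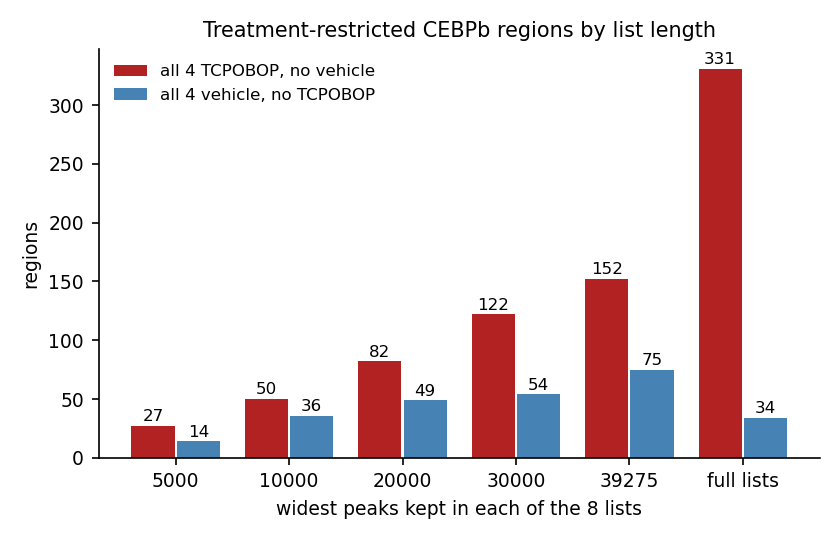
Regions with a CEBPb peak in all 4 TCPOBOP livers and no vehicle liver (red) and in all 4 vehicle livers and no TCPOBOP liver (blue), with each list cut to the given number of its widest peaks and with the full lists. Gained regions outnumber lost ones at every length, by 331 against 34 with the full lists and by 152 against 75 at 39275 peaks.

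The median width percentile of gained regions was near that of all regions and above that of regions called in 2 livers of each treatment. That of lost regions was below both. The median width percentile was 33.8 for the gained and 23.7 for the lost regions, against 32.7 over all regions, 27.9 over regions called in 2 livers of each treatment and 68.1 over regions called in all 8. A mean percentile of 50 or more was held by 29.7% of all regions and 10.2% of those called in 2 livers of each treatment. It was held by 18.7% of gained and 8.82% of lost regions. They were no more isolated than other variable regions: the nearest region called in all 8 livers lay at a median distance of 18.6 kb from gained and 15.6 kb from lost regions, against 22.8 kb for regions called in 2 livers of each treatment. CEBPa was called in at least 1 liver of 27 h at 60.7% of gained and 61.8% of lost regions, near the 56.7% of all regions and the 64.4% of regions called in 2 livers of each treatment. RXR was called at 38.1% of gained regions and at 5 of the 34 lost ones (14.7%). It was called at 28.5% of all regions and at 22.5% of those called in 2 livers of each treatment.

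Ranked by the mean width percentile of their peaks, chr19:40301067-40301585 came first among the gained regions (positions are on the mouse assembly mm9). Its CEBPb peaks were 499, 492, 516 and 448 bp wide in D1 to D4, and no vehicle liver had one. RXR was called there in all 8 livers, over nearly the same interval, with widths of 554 to 588 bp in TCPOBOP livers and 501 to 560 bp in vehicle livers. CEBPa was called in 2 livers of each treatment, D2, D4, C2 and C3, with a peak of 499 bp in C3, so that in vehicle livers the site carried RXR, and in 2 of them CEBPa, without a CEBPb peak.

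At chr2:27237124-27237649 CEBPb peaks of 491, 489, 503 and 424 bp in D1 to D4 came together with RXR peaks in the same 4 livers and in no vehicle liver. The gained region at chr10:98139566-98140039 had CEBPb peaks of 383 to 474 bp, with RXR in 3 TCPOBOP livers and no vehicle liver. At chr12:14216580-14217028 the peaks were 398 to 431 bp wide. CEBPa was gained there as well, in 4 TCPOBOP livers and no vehicle liver, while RXR was called in all 8. The region at chr16:44287494-44287958 had peaks of 390 to 420 bp and no RXR peak at 27 h.

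Among the next 5 by mean width percentile, chr14:10845545-10846054 and chr2:52446493-52446988 each had RXR in 4 TCPOBOP and 2 vehicle livers. The regions chr19:7026061-7026481, chr5:82369735-82370455 and chr6:53236975-53237511 had no RXR peak.

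Among the lost regions chr16:64855873-64856494 had the highest mean width percentile. Its CEBPb peaks measured 288, 258, 374 and 485 bp in C1 to C4, and it lay 589 kb from the nearest region called in all 8 livers. It had CEBPa in 1 TCPOBOP and 2 vehicle livers and no RXR peak. At chr11:28715052-28715513 the peaks were 298, 300, 307 and 351 bp wide, and RXR was called in 4 vehicle and 2 TCPOBOP livers. At chr4:7966291-7966685 the vehicle peaks were 202 to 395 bp wide, with CEBPa in 1 vehicle liver and no RXR peak. The other 7 of the 10 lost regions ranked highest had a mean width percentile under 50. Only 1 of these 7, chr11:3763641-3764037, had an RXR peak, in 1 liver of each treatment. CEBPa had a peak in 1 to 3 livers at 6 of these 7 and none at chr5:109985926-109986411.

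Some gained regions were gained by another factor too. Of the 331, 9 (2.72%) were also gained by RXR, which is 5.49% of the 164 regions that RXR gained. With CEBPa, 2 (0.604%) were gained by both, and 1 was gained by CEBPb and lost by CEBPa. RXR gained 0.284% and CEBPa 0.0362% of their own regions. Those shares are not of CEBPb regions, so they are no like measure for the 2.72% and 0.604%. The share of all CEBPb regions that lay on a region gained by RXR or CEBPa was not computed, and no enrichment is read. Of the 34 lost regions, 0 were lost by another factor. CEBPa and RXR lost 0.206% and 0.232% of their own regions, and nothing is read from the 0 among 34. These counts come from the same 8 livers, so that differences between the animals are common to the factors.

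The regions gained by both CEBPb and RXR included chr2:27237124-27237649, described above, and chr3:113022765-113023184. The latter was the only region gained by all 3 factors: CEBPb peaks of 392, 310, 331 and 349 bp in D1 to D4 came with CEBPa and RXR peaks in the same 4 livers and with no peak of any of the 3 in a vehicle liver. At chr3:87925514-87925946 CEBPb peaks were 250 to 392 bp wide, with RXR in the 4 TCPOBOP livers and CEBPa in 1 of them. At chr19:33009963-33010324 and chr6:131333755-131334336 CEBPb and RXR were gained and CEBPa had no peak. The region with opposite directions was chr11:23426744-23427037. There CEBPb was called in 4 TCPOBOP livers, with peaks of 267, 194, 210 and 217 bp, and CEBPa in 4 vehicle livers, each without a peak in the other treatment.

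RXR calls at 27 h were more frequent in TCPOBOP than in vehicle livers at regions where CEBPb had a peak in more TCPOBOP livers, and less frequent at regions where it had one in more vehicle livers. Regions were grouped by the number of TCPOBOP livers minus the number of vehicle livers with a CEBPb peak, from -4 (lost) to 4 (gained), and RXR calls were counted in each liver. With all lists of a factor cut to the same length, the mean RXR call rate in TCPOBOP minus that in vehicle livers was -3.00, -1.96, -1.37 and -0.606 percentage points at -4 to -1, and 0.896, 0.737, 2.17, 5.12 and 17.4 points at 0 to 4. It rose from each step to the next except from 0 to 1. At the 152 regions gained with these lists, RXR was called at 31.6%, 29.6%, 28.9% and 25.7% in D1 to D4 and at 9.87%, 11.8%, 12.5% and 11.8% in C1 to C4. The groups did not overlap, at 28.9% ± 2.46 against 11.5% ± 1.14 (SD, n = 4 each).

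With the full lists the RXR difference was -2.21 points at -4 and lowest at -3, with -3.17 points, and it rose from there at every step to 11.1 points at the 331 gained regions. RXR was called at 31.1%, 23.3%, 18.4% and 22.1% of them in D1 to D4 and at 11.5%, 13.3%, 9.97% and 15.7% in C1 to C4, and the groups did not overlap. Cutting the lists moved the difference from 11.1 to 17.4 points, on a smaller set of regions. Since CEBPb and RXR were called in the same livers, differences between animals other than the treatment are common to both and cannot be told apart from it here, and no test is given.

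The RXR lists of 3 h came from other mice and another time, and their calls had not been used to choose any region. With lists of equal length, RXR was called at 3 h at 19.7%, 17.8% and 17.1% of those 152 regions in the TCPOBOP livers B1, B3 and B4. The vehicle livers A1, A3 and A4 had 14.5%, 12.5% and 11.8%. The groups did not overlap and differed by 5.26 points, with an SE of 1.12 (exact permutation test, two-sided p = 0.100, the smallest that 3 livers against 3 allow, and adjusted p = 0.600 over 6 such tests). The 3 h difference was -2.67, -1.35, -0.401 and -0.334 points at -4 to -1 and 0.531, 0.189, 1.05, 1.59 and 5.26 points at 0 to 4, with the same exception between 0 and 1. With full lists it was 0 points at -4, -1.41 at -3, 1.10 at 0 and 2.00 at 3. The difference at gained regions was then 5.04 points, and the groups overlapped through A1 (exact permutation p = 0.300, adjusted p = 0.800). That value was 2.18 points without A3 and 8.98 points without A1.

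CEBPa calls at 27 h were also more frequent in TCPOBOP livers at the regions that CEBPb gained. With lists of equal length, at the 152 gained regions CEBPa was called at 16.4%, 16.4%, 14.5% and 14.5% in D1 to D4 and at 8.55%, 5.92%, 6.58% and 6.58% in C1 to C4. The groups did not overlap, and the difference was 8.55 points. It was -3.32 points at -3, 0.402 at 0 and 2.36 at 3, while at the 75 lost regions it was -0.333 and the groups overlapped. With full lists the difference was 4.46 points at gained and -12.5 points at lost regions, and the groups overlapped at both. At gained regions it was 2.63 points without D1, 2.92 without C1 and 7.68 without D4. The full CEBPa lists held 20396 to 29066 peaks in TCPOBOP livers, against 26145 to 35663 in vehicle livers.

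At 3 h CEBPa was called at the same mean rate in both treatments at the 152 regions, 12.1% (exact permutation p = 1.00 and adjusted p = 1.00, n = 3 each), and at 13.6% of the 331 with full lists. In the lists of 3 h, CEBPb had a peak at 4.83%, 3.63% and 2.42% of the 331 regions in the 3 TCPOBOP livers and at 1.51%, 0.302% and 5.74% in the 3 vehicle livers, and the groups overlapped (exact permutation p = 0.7, adjusted p = 1.00). Such low rates were common among regions that varied at 27 h: regions called in 2 livers of each treatment had means of 6.79% and 4.38% in TCPOBOP and vehicle livers of 3 h, and those of 3 TCPOBOP livers and no vehicle liver 4.51% and 2.26%. Over all regions the means were 21.0% and 18.1%. These values came from the full lists. With lists of equal length, CEBPb at 3 h was called at 1.32% of the 152 regions in each TCPOBOP liver. In the vehicle livers it was called at 1.32%, 0.658% and 0.658% (exact permutation p = 0.400, adjusted p = 0.800). The CEBPb lists of 3 h held 11899 to 22984 peaks, fewer than any list of 27 h. Of their peaks, 73.2% to 92.1% lay in regions called in all 8 livers of 27 h. Age, time and the flow cell code of the sample descriptions differ between the CEBP lists of the 2 times and cannot be told apart.

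**Figure D4:**
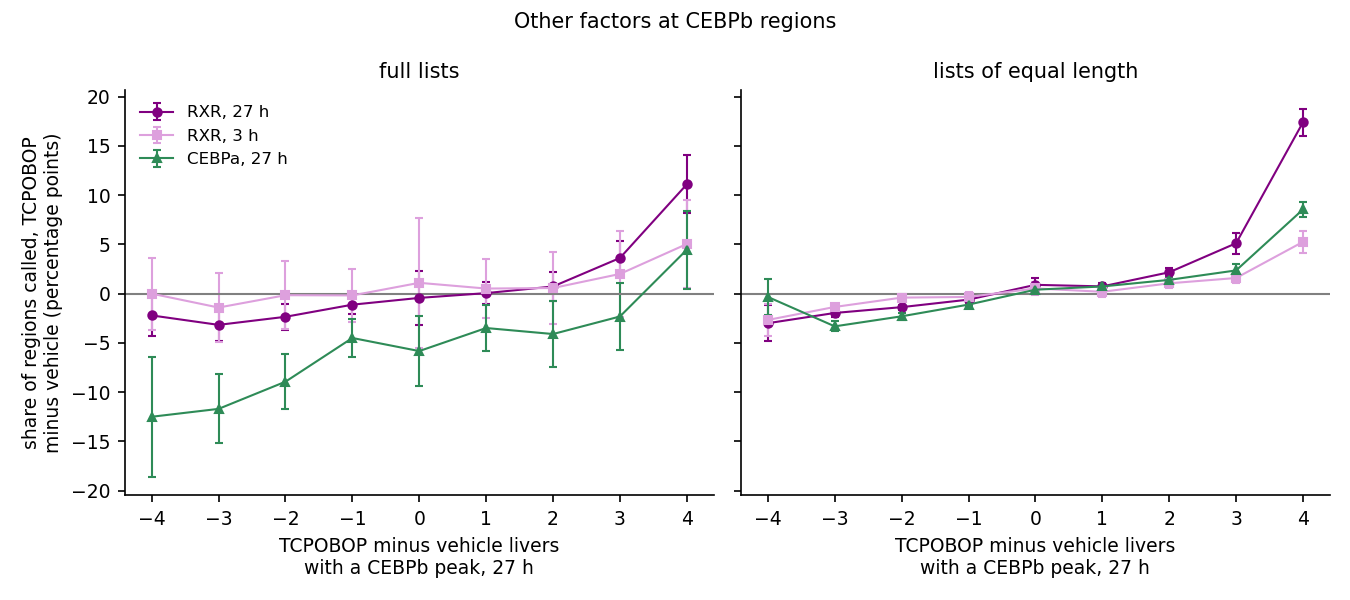
Share of CEBPb regions with a peak of another factor in TCPOBOP minus vehicle livers, in percentage points, against the number of TCPOBOP minus vehicle livers with a CEBPb peak at 27 h, for full lists (left) and lists of equal length (right). Points are differences of means with the SE of the difference (4 livers per treatment at 27 h, 3 at 3 h). RXR at 27 h rises to 11.1 points with full lists and 17.4 points with equal lists, and RXR at 3 h in other mice to 5.04 and 5.26 points.

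Within a liver, the part of the CEBPb peaks that lay on CEBPa peaks tended to be smaller in TCPOBOP livers with the full lists. The shares with CEBPa were 49.3%, 45.7%, 54.1% and 39.5% in D1 to D4 and 49.8%, 59.6%, 66.9% and 57.5% in C1 to C4. The groups overlapped through D3 and C1, and the difference was -11.3 points (two-sided exact permutation p = 0.0571, adjusted p = 0.110). It was 0.558 points with lists cut to the shortest (exact permutation p = 0.2) and -3.55 points with lists cut to 10000 peaks (exact permutation p = 0.0571). The share with RXR was 19.9% to 28.0% in TCPOBOP livers, against 22.1% to 31.5% in vehicle livers, a difference of -1.91 points (exact permutation p = 0.486, adjusted p = 0.486).

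The number of CEBPb peaks per CEBPa peak of the same liver was 1.77, 1.93, 1.59 and 2.40 in D1 to D4 and 1.74, 1.34, 1.10 and 1.45 in C1 to C4. Here D3 lay below C1, and the other 3 TCPOBOP livers lay above all vehicle livers. The log2 ratio differed by 0.45 (exact permutation p = 0.0571, adjusted p = 0.110). The ratio of CEBPb to RXR peaks was 1.57 to 2.03 in TCPOBOP livers, against 1.24 to 1.74 in vehicle livers, and differed by 0.29 on the log2 scale (exact permutation p = 0.0857, adjusted p = 0.110). These ratios compare the treatment difference between antibodies in the same chromatin, and neither passed the threshold of 0.05.

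Peak width was the one measurement available in every liver at the core regions, and it was nearly the same in both treatments. Widths are those of the called interval and not of binding strength. Over the 23684 regions of the core, the median log2 width difference between TCPOBOP and vehicle livers was -0.0033 after each list was centred on its median (0.05 without centring), and 83.8% of regions lay within 0.2 of 0. The limma test with Benjamini-Hochberg adjustment called 6 regions wider (0.0253%) and 1 narrower (0.00422%) in TCPOBOP livers. Of the 23684 regions, 839 were wider and 626 narrower at an unadjusted limma p below 0.05. A share of 0.05 of regions passes that threshold when no width differs, and nothing is read from these counts. At 814 regions (3.44%) every TCPOBOP peak was wider than every vehicle peak, and at 123 (0.519%) the reverse held. Such separation also arises when no width differs, at a share of up to 0.0286 of regions for both directions together. These counts were not tested against that share. Before centring, median widths over the core were 316 to 336 bp in TCPOBOP livers and 303 to 321 bp in vehicle livers. How much of the 814 against 123 goes back to that offset was not tested.

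The largest of these differences was at chr5:66480894-66481618. The widest CEBPb peak of each liver measured 604, 669, 588 and 590 bp in D1 to D4 and 215, 232, 201 and 268 bp in C1 to C4. The groups were far apart, with a log2 difference of 1.38 and an SE of 0.082 (limma, adjusted p = 0.00136). The 4 TCPOBOP livers each had 1 peak over most of the region, from 0 to 51 bp after its start to 609 to 669 bp. Vehicle livers had a peak in one or both ends of that interval: C2 and C4 held 2 separate peaks, C1 held 1 at the right end and C3 held 1 at the left end. CEBPa was called there in 3 TCPOBOP livers and no vehicle liver, and RXR in 4 and 3.

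At chr17:83741185-83741980 the pattern was alike. The TCPOBOP livers held 1 peak each, of 731, 720, 685 and 697 bp. Of the vehicle livers, C1, C2 and C4 held 2 peaks each and C3 held 1, and their widest measured 245, 266, 303 and 326 bp in C1 to C4 (log2 difference 1.27, limma adjusted p = 0.00415). When the peaks of a liver in a region were summed in place of taking the widest, neither the chromosome 5 nor the chromosome 17 region passed the threshold (adjusted p = 0.737 for each), with log2 differences of 0.92 and 0.58, so both calls depend on how separate peaks of a liver are counted. CEBPa held 2 peaks at chr17:83741185-83741980 in 3 TCPOBOP and 3 vehicle livers, and 1 joined peak of 705 bp in C4.

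At the other 5 regions every liver held 1 peak, and it was 1 edge of the peak that differed between treatments. At chr10:15479498-15480238 the right edges of all 8 peaks lay 698 to 741 bp after the start of the region. The left edges lay 0 to 55 bp after it in TCPOBOP livers and 298 to 415 bp after it in vehicle livers. Peaks measured 662, 686, 657 and 698 bp in D1 to D4 and 286, 362, 321 and 416 bp in C1 to C4 (log2 difference 0.93, limma adjusted p = 0.0347). The CEBPa peaks of all 8 livers began 361 to 455 bp after the start, in the part where the vehicle peaks of CEBPb lay. RXR was called at this region in 3 TCPOBOP livers and 1 vehicle liver.

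At chr12:41816411-41816970 the left edges were common, at 0 to 56 bp, and the right edges lay at 491 to 560 bp in TCPOBOP livers, against 250 to 287 bp in vehicle livers. Widths were 543, 551, 441 and 501 bp in D1 to D4 and 271, 252, 231 and 233 bp in C1 to C4 (log2 difference 0.99, limma adjusted p = 0.00885). At chr7:82798620-82799186 right edges also moved, to 510 to 567 bp from 314 to 356 bp, and widths were 478 to 567 bp against 289 to 315 bp (log2 difference 0.73, limma adjusted p = 0.0105). CEBPa was called there in all 8 livers and ended between 280 and 475 bp.

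At chr6:28001585-28002418 the TCPOBOP peaks were 784, 778, 686 and 756 bp wide and the vehicle peaks 481, 454, 433 and 443 bp (log2 difference 0.68, limma adjusted p = 0.0143). Here left edges lay 0 to 82 bp after the start under TCPOBOP and 347 to 380 bp after it under vehicle, while right edges were common. The single narrower region, chr6:128387596-128388168, had peaks of 303, 376, 320 and 350 bp in D1 to D4 and 516, 543, 514 and 488 bp in C1 to C4 (log2 difference -0.67, limma adjusted p = 0.0405). Its right edges were common, and the vehicle peaks began 0 to 74 bp and the TCPOBOP peaks 193 to 249 bp after the start. CEBPa peaks there began at 213 bp or later in 7 of the 8 livers and before the region in C2. The calls at 2 regions were close to the threshold. At chr10:15479498-15480238 the adjusted p in limma was 0.0654 to 0.126 without D1, D2, D3, D4, C2 or C3, and at chr6:128387596-128388168 it was 0.0524 to 0.131 without any 1 of the livers other than C4, and 0.108 without centring. Without C3 it was 0.0550 at chr6:28001585-28002418. With the liver number as a replicate block none of the 7 regions passed (limma adjusted p of 0.145 to 0.434). The widths of the 2 treatments overlapped at none of the 7, which follows largely from their choice by a test on the same widths.

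**Figure D5:**
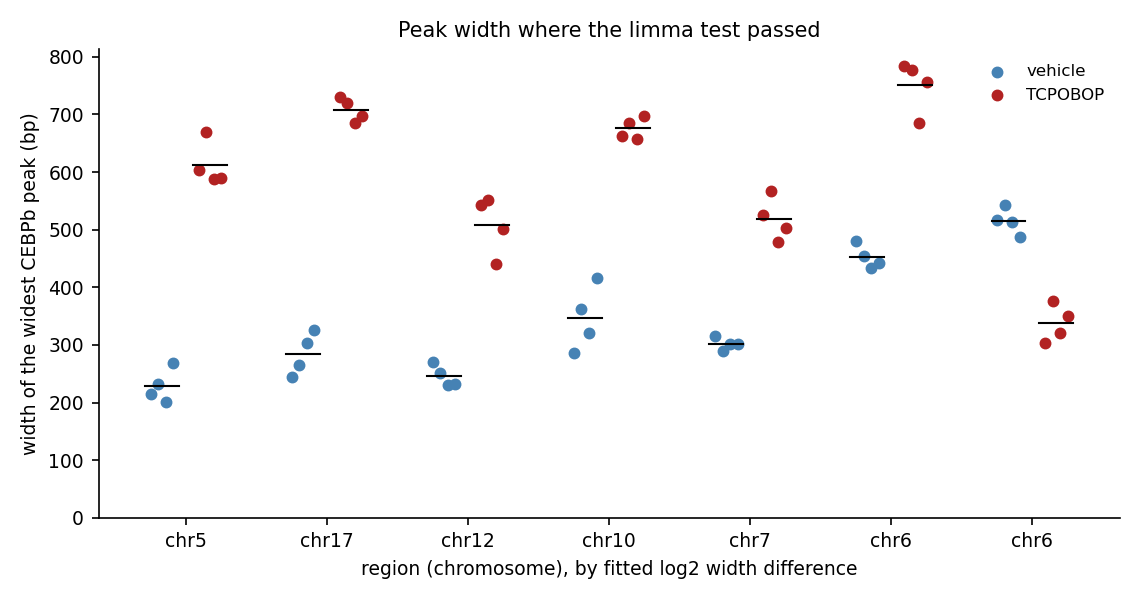
Width in bp of the widest CEBPb peak of each liver at the 7 regions past the limma threshold, ordered by fitted difference, with 1 point per liver and a line at the mean of 4. TCPOBOP livers lie above vehicle livers at 6 regions, by up to 1.38 on the log2 scale at the chromosome 5 region, and below them at 1 region of chromosome 6.

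Peaks were also compared base by base, in a count added after the data were seen. It reuses the peak edges behind the width test and is no separate support for it. Stretches of at least 100 bp were taken that lay under a CEBPb peak in all 4 livers of one treatment and in no liver of the other. Inside the 23684 regions of the core they numbered 15 for TCPOBOP and 3 for vehicle. Equal list lengths gave 13 and 4. With the full lists, all 6 regions called wider by the width test held a TCPOBOP stretch. The longest for TCPOBOP were 265 bp in chr6:28001585-28002418 and 243 bp in chr10:15479498-15480238, and the longest for vehicle 230 bp in chr19:21103488-21104468. The first of these was covered by CEBPa in 4 vehicle livers and 1 TCPOBOP liver, over at least 50 bp, the opposite balance to CEBPb. The second was covered by CEBPa in no liver and by RXR in 2 TCPOBOP livers.

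Gained regions were spread over the genome. They fell on all 19 autosomes and on chromosome X, and none on chromosome Y, at 0.191% (chromosome 16) to 0.652% (chromosome X, 9 regions) of the regions of a chromosome. Of the windows of 1 Mb that held any, 290 held 1, 19 held 2 and 1 held 3. The window with 3 was chr6:50000001-51000000, which also held 15 regions called in all 8 livers. Windows of 100 kb with the most regions called in all 8 livers were chr14:41900001-42000000 and chr3:82800001-82900000 with 13 each, and neither held a gained or a lost region.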

How the data were processed

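Chromatin immunoprecipitation with sequencing was done on individual livers. The submitters' processing notes name Bowtie2 2.3.2, MACS2 and the build mm9. The version of MACS2 and its parameters: not given in the sources used here. Per library, the authors deposited a single peak list with chromosome, start, end and name and no other value, so peaks were not called on pooled livers. Starts were raised by 1 to count from 1.

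The members and lists were chosen with earlier results of these data known. Peaks of the 8 lists were merged from 1 bp of overlap. Presence per region was tested with Fisher's exact test, log2 width over regions called in all 8 lists with limma 3.58.1 (trended prior, lists centred on their median) in R 4.3.3, and single values per liver with exact permutation tests, two-sided. Adjustment was Benjamini-Hochberg at 0.05. Functions were tested on simulated data. Calculations used Python 3.11.15, numpy 2.4.6, pandas 2.3.3 and scipy 1.17.1.

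Named regions were the 10 gained and 10 lost with the highest mean width percentile, those changed by another factor too (up to 10), and the 5 widest and 5 narrowest calls of the width test; the window counts followed the same rule. The width region chr6:28001585-28002418 was the sixth wider call, beyond this rule, and was named after its values were seen, as were the longest stretches. Equal lists kept the widest peaks of each list, as many as the shortest list of that factor and time had, because the lists give no strength; width stands in for it imperfectly. Genes, motifs and sequences need a genome of mm9 and were not analysed here. Alternatives left out each liver, changed list length, merging and centring, and removed peaks on input peaks.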

Additional observations from a re-analysis of the deposited data

Results flagged for a closer look

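Among 76 groups of 4 livers examined for a value far from the other 3, 3 stood apart, where chance flags about 1 in 20 groups, or 3.80 of 76. The share of CEBPb peaks that lay on both a CEBPa and an RXR peak was 18.5% in the TCPOBOP liver D1, against 14.6% or less in the other TCPOBOP livers. At the gained region chr5:82369735-82370455 the CEBPb peak was 229 bp wide in D3, against 584 to 647 bp in the other TCPOBOP livers. At the lost region chr11:28715052-28715513 the peak was 351 bp wide in the vehicle liver C4, against 298 to 307 bp in the other vehicle livers.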

How the results depend on the processing

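Leaving out 1 liver gave 459 to 747 gained and 62 to 140 lost regions, which rise by construction, 6 to 17 wider and 1 to 5 narrower regions, and 17 to 36 TCPOBOP-only and 4 to 12 vehicle-only stretches in core regions. Gained and lost regions numbered 152 and 75 with lists of equal length, 27 and 14 at 5000 peaks, 50 and 36 at 10000, 82 and 49 at 20000, and 122 and 54 at 30000. With the full lists they numbered 1468 and 309 when 3 or 4 livers against none sufficed, and 4350 and 1210 against at most 1. Each kept more gained than lost regions. At 10000 peaks the stretches numbered 1 and 1. Widths without centring, or with quantile normalization, gave 6 wider and 0 narrower regions.

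Liver numbers are shared by C and D livers of different animals. Widths of same-numbered livers deviated together only weakly, with correlations of 0.00519 to 0.0394, against -0.0281 to 0.0139 for livers of different number. With the number as a replicate block, limma called 0 wider and 0 narrower regions (adjusted p of 0.145 to 0.434 at the 7 regions, all in the same direction), and no single value passed, with 0.125 as the smallest p of 4 sign changes. The sample labels do not say whether the numbers pair the livers, so the data here do not settle whether the block belongs in the fit. The width calls depend on leaving it out.

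The shares of CEBPb peaks reversed with lists cut to the shortest, by 0.558 points with CEBPa, 1.06 with RXR, 0.677 with both and -0.942 with neither. At 10000 peaks they differed by -3.55 points with CEBPa, 0.605 with RXR and 2.82 with neither. With RXR the share differed by -3.32 to 0.0376 points when 1 liver was left out. Without D3, peak number and bases under peaks differed by 0.24 and 0.25 on the log2 scale (exact permutation p = 0.0286, unadjusted). Without 1 liver the ranges were 0.14 to 0.24 and 0.14 to 0.25, and the share with neither differed by 7.71 to 12.6 points (exact permutation p of 0.0286 to 0.143). The difference in RXR calls at gained regions moved from 11.1 to 17.4 points with equal lists, and without 1 liver it was 8.65 to 12.9 points. Causes were not tested.

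The unknown depth limits every absent call, since signal under the caller's threshold is not listed.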
